A study of Saccharomyces cerevisiae with 4 samples.

Results

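The genes described here encode the enzymes that take glucose to ethanol, acetate, acetyl-CoA and glycerol in budding yeast, with 2 activators of glycolytic genes. They were chosen by name: a probe set belongs to the group when the array's annotation gives it one of 32 gene symbols. A probe set was found for 31 of them, 1 each, among 5449 S. cerevisiae genes with a probe set on the array. TDH2 has no row in the annotation used and was not analysed here. All 31 probe sets carry the suffix of sets specific to 1 transcript, and 0 were listed for several genes, so none of these 31 is shared between members.

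Total RNA came from mid-log cultures of strain BY4741 at 30°C in synthetic complete medium lacking leucine, and was hybridised to the Affymetrix Yeast Genome 2.0 array. All cultures were haploid, mating type a, with the alleles ura3∆0, leu2∆0, his3∆1 and met15∆0, and all carried the LEU2 marker on a plasmid. In 2 cultures the plasmid was p425-GPD without insert (empty vector), and in 2 it was p425-GPD-RNase H1, whose insert stands behind the GPD promoter, that is the promoter of the glycolytic gene TDH3. RNase H1 is a nuclease that removes RNA paired to DNA, and the labels do not name the species of the insert. The comparison asks which transcripts differ when the plasmid carries the insert. The labels call the replicates biological, without saying whether they came from separate transformants.

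In yeast, glucose is phosphorylated, split into triose phosphates and oxidised to pyruvate by enzymes that are among the most abundant proteins of the cell. On glucose most pyruvate is decarboxylated to acetaldehyde and reduced to ethanol, even with oxygen present. The remainder enters mitochondria through pyruvate dehydrogenase or becomes cytosolic acetyl-CoA by way of acetate, and some triose phosphate is drawn off to glycerol. Several steps have a major isoenzyme made in growing cells and minor ones used in other states. Gcr1 and Tye7 are transcription factors that act at promoters of glycolytic genes.

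The sums of all signals lay between 6889760 and 7097920 on the 4 arrays. The 6 a-specific genes checked had signals between 425 and 7527, against 8.39 to 41.5 for the alpha-specific genes MF(ALPHA)1 and MF(ALPHA)2 in all arrays and STE3 in the controls. Signals lower on both RNase H1 arrays than on both controls were found for 30.8% of all probe sets tested, and for all 6 a-specific genes. Of these, BAR1, the protease that degrades alpha-factor (log2 −2.54 ± 0.18, adjusted p = 0.0188), and STE2, the alpha-factor receptor (−0.94 ± 0.06, adjusted p = 0.0161), passed the limma test described below. The other 4 lay between −2.14 and −0.48. The signal of STE3 was 138 and 75.6 on the RNase H1 arrays, and that of SAG1, a further alpha-specific gene, lay between 263 and 499. The yeast gene RNH1 had signals between 292 and 320.3 on all arrays, with a log2 difference of −0.004, so its probe set showed no rise. Whether this probe set would detect the insert is not known, so overexpression of the insert could not be checked on these arrays. The RNase H1 arrays differed more from each other than the controls did. Of the 31 glycolytic and fermentation probe sets, 8 were over 1.5-fold apart between the RNase H1 arrays and 0 between the controls. Of all 5470 probe sets tested, 1550 were so between the RNase H1 arrays and 182 between the controls. The 3' to 5' signal ratio of actin, which reflects how complete the amplified RNA was, was 1.34 on both control arrays and 1.68 and 1.48 on RNase H1 arrays 1 and 2. A second actin control had ratios of 1.41 and 1.40 on the controls and 1.47 and 1.30 on the RNase H1 arrays. The part of these ratios, of the mating-type genes and of the differing RNase H1 arrays in the results was not tested.

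Of the 31 probe sets, 0 were called higher and 0 lower by the limma model with a Benjamini-Hochberg adjusted p under 0.05 over all 5470 probe sets tested. The share of all tested probe sets that passed was 1.48%, made up of 1.13% higher and 0.347% lower. Without adjustment (p under 0.05), 6 members were higher, against 11.0% of all probe sets, and 9 were lower, against 12.7%. Those higher were TYE7, PDC6, TDH1, ADH5, GPD2 and ENO1, and those lower were ALD6, ALD4, ACS2, PDB1, FBA1, PGI1, PGK1, GPM1 and PDA1. Without empty-vector array 1, 1 member passed as higher and 1 as lower, when 0.987% and 0.183% of all probe sets passed. Without empty-vector array 2 there were 2 and 1, against 1.04% and 0.183%. Fits without 1 RNase H1 array take their spread from the controls alone. Without RNase H1 array 1, 7 members passed as higher and 12 as lower, when 21.6% and 29.3% of all probe sets did so. Without RNase H1 array 2 the counts were 7 and 11, against 17.0% and 15.2%. The RNase H1 arrays both lay above both controls for 6 members (28.0% of all probe sets) and both below for 16 (30.8%). The median log2 difference, RNase H1 minus empty vector, was −0.11 over the 31 and −0.02 over all tested probe sets. In the RNase H1 arrays taken singly, the median of the 31 was −0.13 in array 1 and −0.09 in array 2. Differences below are on the log2 scale with the standard error of the model (n = 2 against 2). In RNA from whole cultures, fewer expressing cells and less RNA per cell cannot be told apart.

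**Figure D1:**
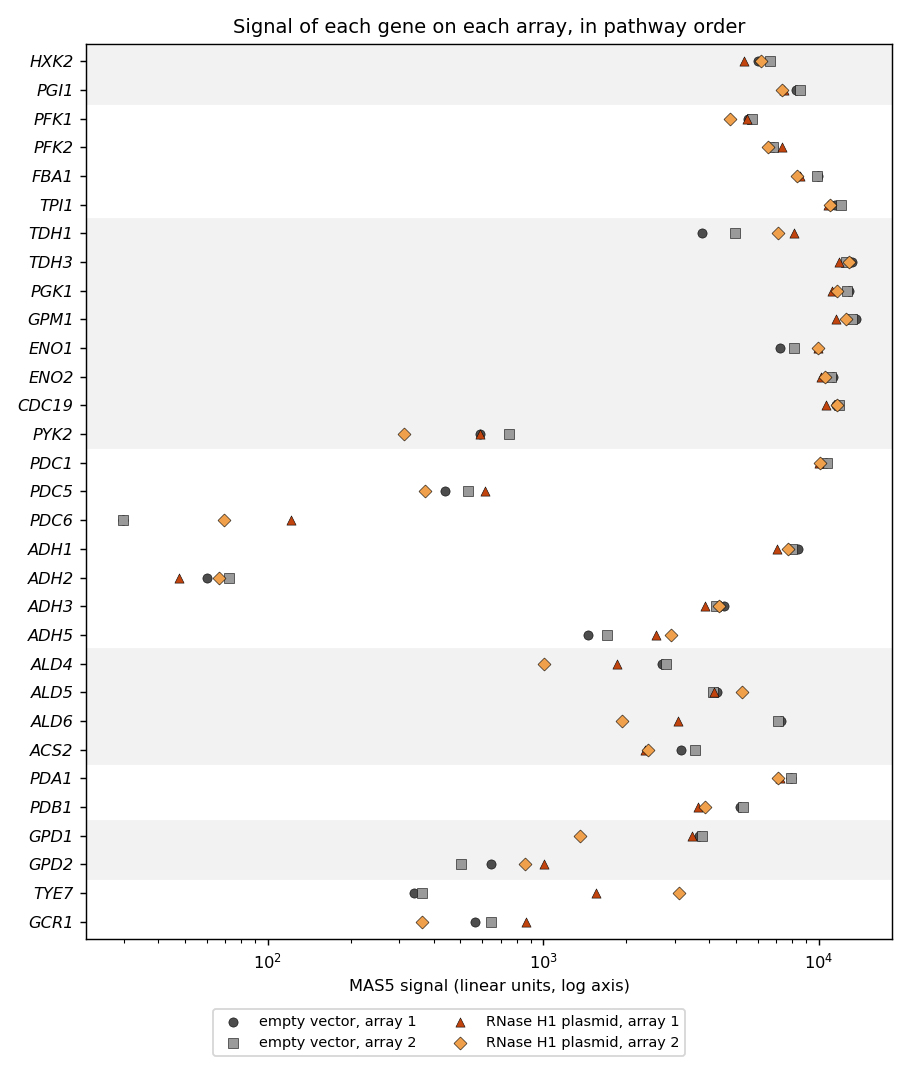
MAS5 signal of the 31 genes (horizontal log axis) on each of the 4 arrays, in pathway order from the top, with shaded bands marking the steps. TYE7 and PDC6 lie to the right on both RNase H1 arrays, ALD6 and ALD4 to the left, and the 10 genes with signals above 8000 in both controls are nearly superimposed.

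The first steps of glycolysis differed little between the groups. HXK2, the main hexokinase on glucose, had signals of 6038 and 6667 on the control arrays and 5371 and 6163 on the RNase H1 arrays. These ranges overlap, and its log2 difference was −0.14 ± 0.10. PGI1, which turns glucose 6-phosphate into fructose 6-phosphate, had signals of 8276 and 8550 in the controls and 7501 and 7350 in the RNase H1 arrays. The PGI1 arrays did not overlap, and the difference was −0.18 ± 0.05 (adjusted p = 0.156). The subunits of phosphofructokinase, the committed step, were at −0.13 ± 0.09 for PFK1 and 0.02 ± 0.08 for PFK2. FBA1, the aldolase that splits the sugar, had signals of 9906 and 9864 in the controls against 8546 and 8341 in the RNase H1 arrays. Its difference of −0.23 ± 0.05 did not pass (adjusted p = 0.0946), although both arrays of one group lay below both of the other. TPI1, triose phosphate isomerase, was at −0.11 ± 0.05 and its arrays did not overlap either.

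In the signals as deposited, lower glycolysis showed small negative differences in the major genes and positive ones in TDH1 and ENO1. Of its 8 probe sets, 2 lay above 0 as deposited and after median scaling. After quantile scaling 6 did so, and after cyclic loess scaling 7. TDH3 encodes the main glyceraldehyde 3-phosphate dehydrogenase, and its promoter is the one that drives the plasmid insert. Its signals were 13144 and 12547 in the controls and 11785 and 12813 in the RNase H1 arrays. The groups overlapped, and the difference was −0.06 ± 0.06, with a 95% interval from −0.22 to 0.09. TDH1, the isoenzyme linked to slow growth and stress, had signals of 3776 and 4952 in the controls and 8097 and 7133 in the RNase H1 arrays. Both RNase H1 values of TDH1 lay above both controls. The difference of 0.81 ± 0.15 (1.76-fold) did not pass (adjusted p = 0.0857). It was 0.62 without empty-vector array 1 and 1.01 without empty-vector array 2.

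The array holds further TDH1 probe sets among its controls, placed toward the 3' end, the middle and the 5' end of the transcript. The 3' set read 4362 and 5597 in the controls and 7826 and 7336 in the RNase H1 arrays. The 5' set read 2848 and 4245 in the controls and 6595 and 6006 in the RNase H1 arrays. The middle set read 878 and 1389 in the controls and 3164 and 2128 in the RNase H1 arrays. In all 3 the groups did not overlap, with ratios of 1.53, 1.81 and 2.35 between group means of the log signals. These sets measure the same RNA as the member probe set and are no further replicates. One more set, whose suffix marks probes shared with other transcripts, read 11402 and 11085 in the controls and 10194 and 11025 in the RNase H1 arrays, a ratio of 0.943. The TDH1 ratio of 3' to 5' signal was 1.53 and 1.32 in the controls and 1.19 and 1.22 in the RNase H1 arrays, whereas the first actin ratio was higher on the RNase H1 arrays.

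Enolase showed the same arrangement. ENO1 had signals of 7250 and 8149 in the controls and 9963 and 9898 in the RNase H1 arrays, without overlap. Its difference was 0.37 ± 0.07, or 1.29-fold (adjusted p = 0.0877). ENO2, the form favoured on glucose, had signals of 11227 and 11108 in the controls and 10147 and 10517 in the RNase H1 arrays, a difference of −0.11 ± 0.05. PGK1, which makes the first ATP of the pathway, was at −0.16 ± 0.04, and GPM1, phosphoglycerate mutase, at −0.15 ± 0.06. In both, the RNase H1 arrays lay below the controls. CDC19, the main pyruvate kinase, was at −0.07 ± 0.06 with overlapping arrays. PYK2, the pyruvate kinase used when glycolytic flux is low, had signals of 592 and 753 in the controls and 591 and 313 in the RNase H1 arrays. Its difference of −0.63 ± 0.35 came mostly from RNase H1 array 2, since array 1 was at −0.18 and array 2 at −1.09 relative to the mean of the controls.

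**Figure D2:**
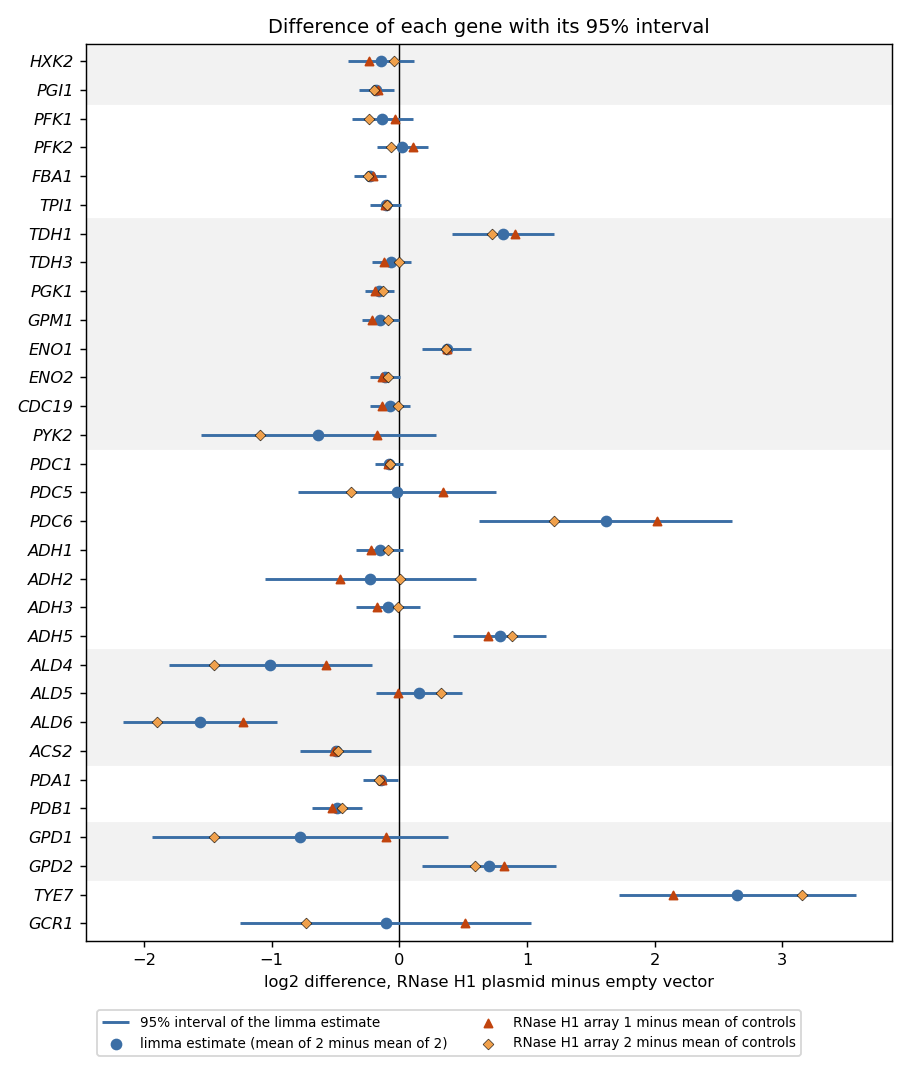
Log2 difference of the 31 genes (horizontal axis, RNase H1 plasmid minus empty vector) with its 95% interval from the limma model, and each RNase H1 array against the mean of the controls. TYE7 at 2.65 and PDC6 at 1.62 lie farthest to the right, and ALD6 at −1.56 and ALD4 at −1.01 farthest to the left. No difference passed an adjusted p of 0.05.

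Ethanol formation was represented by 7 genes. PDC1, the main pyruvate decarboxylase, had signals of 10568 and 10674 in the controls and 9995 and 10091 in the RNase H1 arrays, a difference of −0.08 ± 0.04. PDC5, which takes over when PDC1 is lost, had signals of 439 and 533 in the controls and 614 and 373 in the RNase H1 arrays. The RNase H1 arrays thus fell on either side of the controls, and the difference of PDC5 was −0.02 ± 0.30. PDC6, a minor form known to be induced when sulphur is limiting, had signals of 30.0 and 29.8 in the controls and 121 and 69.4 in the RNase H1 arrays. Both RNase H1 values lay well above the controls, and the difference of 1.62 ± 0.38 (3.07-fold) did not pass (adjusted p = 0.109). With a pseudocount of 64 added to the signals, PDC6 minus PDC1 was 0.82, against 1.70 without.

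ADH1, the main enzyme that reduces acetaldehyde to ethanol, had signals of 8429 and 8006 in the controls and 7048 and 7742 in the RNase H1 arrays, a difference of −0.15 ± 0.07. ADH5, a minor cytosolic form, had signals of 1457 and 1705 in the controls and 2556 and 2899 in the RNase H1 arrays. The groups did not overlap, and the difference was 0.79 ± 0.14 or 1.73-fold (adjusted p = 0.0801). ADH2, the form that oxidises ethanol and is repressed by glucose, had low signals of 60.2 and 72.4 in the controls and 47.9 and 66.3 in the RNase H1 arrays. These overlap, as did those of ADH3, the mitochondrial form, whose difference was −0.09 ± 0.10.

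The acetate route to acetyl-CoA held the largest negative differences among the 31. ALD6, the cytosolic aldehyde dehydrogenase that makes acetate and NADPH, had signals of 7317 and 7085 in the controls and 3083 and 1929 in the RNase H1 arrays. Both RNase H1 values were under those of both controls, and the RNase H1 arrays differed from each other by 0.68 on the log2 scale. The difference of −1.56 ± 0.23 (2.95-fold lower, 95% interval from −2.17 to −0.96) did not pass (adjusted p = 0.0614). ALD4, the main mitochondrial form, had signals of 2707 and 2782 in the controls and 1847 and 1003 in the RNase H1 arrays. Its difference was −1.01 ± 0.30 (2.02-fold lower, adjusted p = 0.159), again larger in RNase H1 array 2. ALD5, a minor mitochondrial form, had signals of 4276 and 4144 in the controls and 4179 and 5265 in the RNase H1 arrays, which overlap. ACS2, the acetyl-CoA synthetase used on glucose, had signals of 3154 and 3567 in the controls and 2348 and 2398 in the RNase H1 arrays. Its RNase H1 arrays lay close together and below the controls, at −0.50 ± 0.11 or 1.41-fold lower (adjusted p = 0.0971).

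Pyruvate dehydrogenase, which joins glycolysis to the mitochondrial cycle, was represented by both subunits of its E1 component. PDB1, the beta subunit, had signals of 5194 and 5319 in the controls and 3639 and 3846 in the RNase H1 arrays. The groups did not overlap, and the difference was −0.49 ± 0.08 or 1.40-fold lower (adjusted p = 0.0663). PDA1, the alpha subunit, had signals of 7892 and 7895 in the controls and 7201 and 7080 in the RNase H1 arrays, a difference of −0.14 ± 0.05 (adjusted p = 0.196).

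Glycerol synthesis begins with glycerol 3-phosphate dehydrogenase, whose isoenzymes had differences of opposite sign. GPD1, the form induced by osmotic stress, had signals of 3665 and 3778 in the controls and 3453 and 1362 in the RNase H1 arrays. RNase H1 array 1 was close to the controls at −0.11 and array 2 was at −1.45, so the difference of −0.78 ± 0.44 rests on 1 array. GPD2, the form used to balance NADH when oxygen is short, had signals of 647 and 505 in the controls and 1008 and 860 in the RNase H1 arrays. Both RNase H1 values of GPD2 lay above the controls, at 0.70 ± 0.20 or 1.63-fold (adjusted p = 0.145).

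Of the activators, TYE7 had the largest difference of the 31 genes. Its signals were 340.2 and 363 in the controls and 1557 and 3120 in the RNase H1 arrays. The controls lay close together, while RNase H1 array 2 was at 3.15 and array 1 at 2.15 above their mean on the log2 scale. The difference of 2.65 ± 0.36 (6.27-fold, 95% interval from 1.72 to 3.58) did not pass (adjusted p = 0.0529). TYE7 passed without empty-vector array 1 (adjusted p = 0.0109) and without empty-vector array 2 (adjusted p = 0.00827), and so did ALD6 (adjusted p = 0.0157 and 0.0112). Without RNase H1 array 1 the difference was 3.15 for TYE7 and −1.90 for ALD6, and without array 2 it was 2.15 and −1.22. GCR1 had signals of 563 and 648 in the controls and 863 and 364 in the RNase H1 arrays. One RNase H1 array lay above and the other below both controls, and the difference of GCR1 was −0.11 ± 0.44.

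Isoenzymes were then compared with each other within arrays, as the log2 ratio of 2 probe sets minus the mean of that ratio in the controls. This describes unequal change and not the level of one gene against another. The annotation allowed 13 pairs. TDH1 relative to TDH3 was at 1.03 and 0.73 in RNase H1 arrays 1 and 2, and ENO1 relative to ENO2 at 0.51 and 0.45. ADH5 relative to ADH1 was at 0.92 and 0.96, and PDC6 relative to PDC1 at 2.11 and 1.29. ALD5 relative to ALD6 was at 1.21 and 2.22, and GPD1 relative to GPD2 at −0.93 and −2.04. For these 6 pairs both RNase H1 arrays lay on one side of both controls. The sign was kept after quantile and cyclic loess scaling and with both pseudocounts. Median scaling shifts all log2 signals of an array equally, so it cannot change these ratios. PDA1 relative to PDB1 was at 0.40 and 0.29, and ALD4 relative to ALD6 at 0.65 and 0.45. Smaller values were seen for PFK1 relative to PFK2, at −0.14 and −0.17, and ADH3 relative to ADH1 at 0.05 and 0.08. In the PDA1, ALD4, PFK1 and ADH3 pairs, too, both RNase H1 arrays lay on one side of both controls. Their signs were also kept, except for ADH3 relative to ADH1, at −0.0076 after quantile scaling. The share of such pairs among all genes was not computed. In PYK2 relative to CDC19, PDC5 relative to PDC1 and ADH2 relative to ADH1, at least 1 RNase H1 array lay within the range of the controls or the arrays had opposite signs. With 2 arrays a group, the smallest p of an exact permutation test (two-sided) is 0.333, the value of 10 of the 13 pairs (0.433 after Benjamini-Hochberg adjustment over the 13), so no pair can pass.

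**Figure D3:**
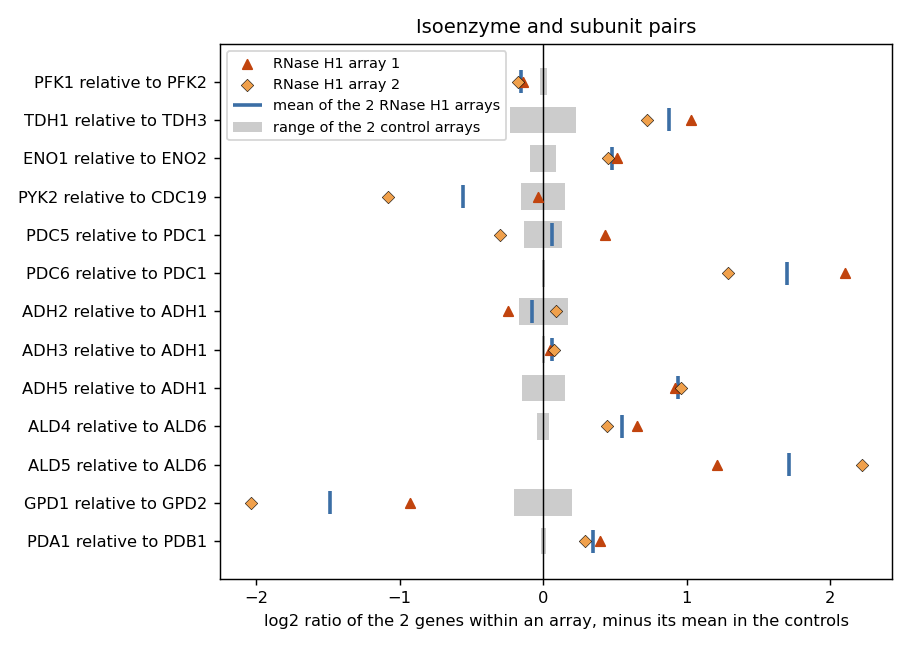
Change of 1 gene relative to another within each RNase H1 array (horizontal axis, log2 ratio minus its mean in the controls) for 13 pairs, with the range of the control arrays in grey. PDC6, TDH1, ADH5 and ENO1 lie to the right of 0 relative to PDC1, TDH3, ADH1 and ENO2 on both RNase H1 arrays, and GPD1 lies to the left of 0 relative to GPD2.

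The small negative differences of the brightest probe sets depended on how the arrays were scaled. Signals were above 8000 in both controls for 10 members, namely PGI1, FBA1, TPI1, TDH3, PGK1, GPM1, ENO2, CDC19, PDC1 and ADH1. As deposited, all 10 were between −0.23 and −0.06, with a median of −0.13. After cyclic loess scaling, 8 of these 10 lay above 0, with a median of 0.06. After quantile scaling, 6 lay above 0, with a median of 0.01, and after median scaling all 10 stayed below 0. The largest signal on any array was 15619, and 6 members were above 10000 on every array. The sources used here do not say whether their probes were near saturation. TYE7 (2.61 to 2.64), TDH1 (0.78 to 0.96), ADH5 (0.75 to 0.86) and ENO1 (0.33 to 0.55) stayed above 0 under the 3 scalings. ALD6 (−1.60 to −1.44), ALD4 (−1.05 to −0.94), ACS2 (−0.53 to −0.40) and PDB1 (−0.53 to −0.36) stayed below 0 under them. None of these 8 passed an adjusted p of 0.05 under the 3 scalings.

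**Figure D4:**
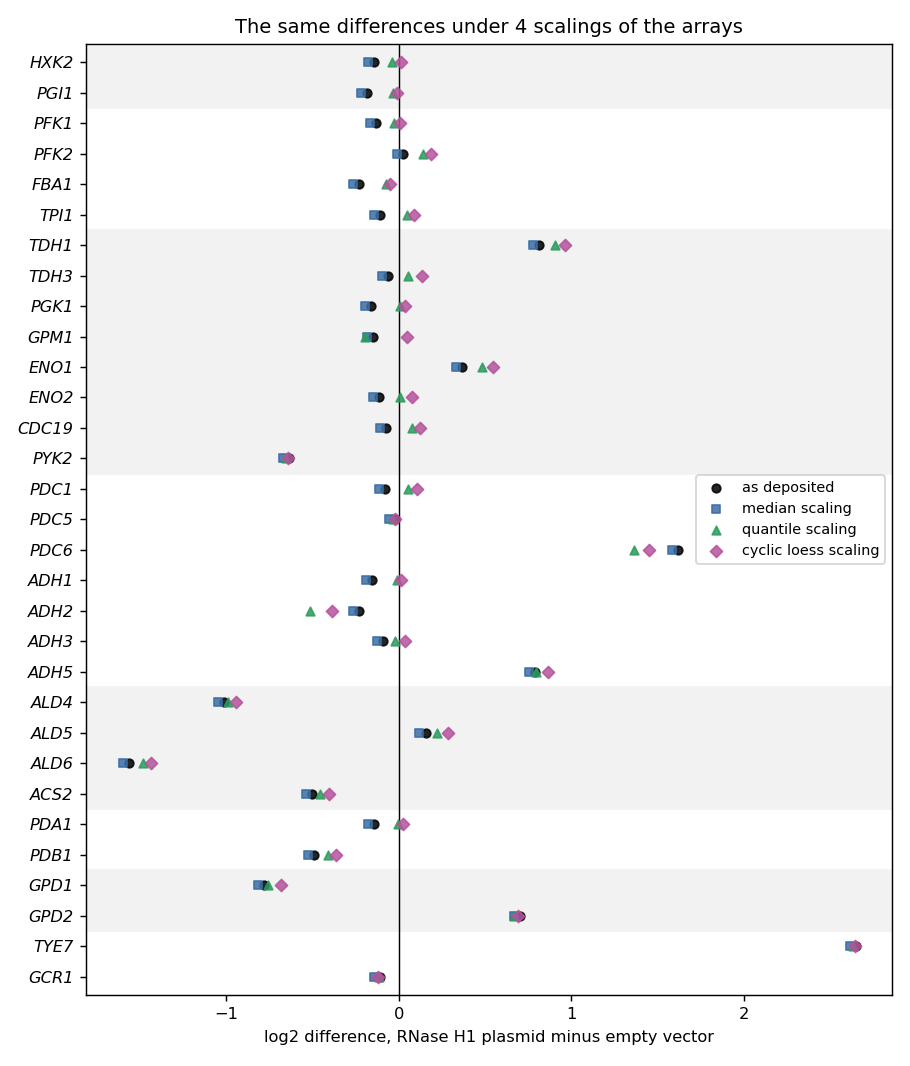
Log2 difference of the 31 genes (horizontal axis) as deposited and after median, quantile and cyclic loess scaling of the arrays. The 10 brightest genes move across 0 or close to it between scalings, whereas TYE7, PDC6, ALD6 and ALD4 keep their side.

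A wider list of 40 genes of the same pathways, among them further hexokinases, dehydrogenases and subunits, had 39 tested probe sets. Of these, 0 passed in either direction in the limma model. At an unadjusted p under 0.05 there were 6 above and 3 below the controls, against 11.0% and 12.7% of all probe sets, and the median was −0.08. With the spread of the controls alone, 9 were above and 13 below past the threshold without RNase H1 array 1, against 21.6% and 29.3% of all probe sets. Without RNase H1 array 2 they were 9 and 4, against 17.0% and 15.2%. GPP2, a glycerol 3-phosphatase of the last step of glycerol synthesis, had signals of 2772 and 2768 in the controls and 4220 and 4511 in the RNase H1 arrays. Its difference was 0.66 ± 0.09 (adjusted p = 0.0506), and it passed after quantile (adjusted p = 0.0377) and loess scaling (adjusted p = 0.0313). GPP1, the brighter form of the same enzyme, had signals of 6982 and 6599 in the controls and 7300 and 8838 in the RNase H1 arrays. Its difference in the limma model was 0.24 ± 0.11 (unadjusted p = 0.0747, adjusted p = 0.248). MPC2, a subunit of the mitochondrial pyruvate carrier, was at 0.38 ± 0.06 (adjusted p = 0.0710). It passed after quantile and loess scaling (adjusted p = 0.0448 and 0.0329). After median scaling GPP2 and MPC2 did not pass (adjusted p = 0.0944 and 0.147). Without an intensity trend in the limma model they did not pass either (adjusted p = 0.151 and 0.230). LAT1, the E2 component of pyruvate dehydrogenase, had signals of 6712 and 6639 in the controls and 4944 and 4129 in the RNase H1 arrays. Its difference of −0.56 ± 0.10 (adjusted p = 0.0857) was close in size to that of PDB1. LPD1, the E3 component, was at −0.27 ± 0.10, and the hexokinase HXK1 at −1.37 ± 0.46. Without RNase H1 array 1 the difference of HXK1 was −2.04, and without array 2 it was −0.71. The others past an unadjusted p of 0.05 were ADH4 (1.37 ± 0.52), MPC3 (1.33 ± 0.36), the activator gene ADR1 (0.66 ± 0.19) and the acetyl-CoA synthetase gene ACS1 (0.59 ± 0.20). ADH4 was at 0.62 without RNase H1 array 1 and at 2.11 without array 2.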

How the data were processed

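The authors deposited 1 signal per probe set and array, a linear intensity computed with Affymetrix Expression Console and MAS5, per the submitters' processing notes. The sources used here do not state the MAS5 scaling target, and the number of arrays limits the precision. Probe sets were named from the array annotation through the R64 gene table. Of 10928 probe sets, 5498 had 1 S. cerevisiae gene. The array also holds S. pombe, and the 1746 annotated sets whose single gene is not in that table, taken as S. pombe, gave the background (3470 unlisted and 213 control sets were left out): the mean log2 signal had to exceed their 75th percentile (a signal of 2.13), which left 5470 probe sets and all 31 members. Log2 signals were compared with limma 3.58.1 (lmFit, eBayes with an intensity trend) in R 4.3.3, two-sided, with Benjamini-Hochberg adjustment at 0.05, and the steps were tested on simulated data. All 31 members are named, and genes of the wider list at an unadjusted p under 0.05, with GPP1, were named after their values were seen. Other scalings, dim filters, pseudocounts, variance models, a replicate block and each array left out were tried. The members and lists were chosen with earlier results of these data known. Arrays of equal number were not treated as pairs, since the labels do not say that they share a day or batch.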

Additional observations from a re-analysis of the deposited data

How the results depend on the processing

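With 2 arrays a group, of which the RNase H1 arrays differ widely, single genes are estimated poorly, and no permutation test can pass. The count of 0 members past the threshold in either direction was the same after the 3 scalings, with both other dim filters, with both pseudocounts, without an intensity trend and with robust eBayes. At an adjusted p under 0.10 it was 4 higher and 4 lower, when 192 and 173 of all 5470 probe sets passed. With the labels' replicate number as a replicate block, 1 was higher (TYE7, adjusted p = 0.0228) and 1 lower (ALD6, adjusted p = 0.0216), when 66 and 16 of all 5470 probe sets passed. The numbers were not taken as pairs, since the labels do not say that such arrays share a day or batch. Deviations of arrays with the same number correlated at −0.30 over the 5470 probe sets. A replicate block with the numbers crossed, added after seeing that correlation, gave 6 higher and 6 lower, when 8.83% and 8.30% of all probe sets passed. Because this pairing was picked from the same values, its counts can be too high and are not used as support. Leaving out 1 array gave between 1 and 7 members higher and between 1 and 12 lower. A fit without 1 RNase H1 array takes its spread from the controls alone and assumes that the lone array varies like them. The difference of TDH1 was 0.62 without empty-vector array 1 and 1.01 without empty-vector array 2.

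Over all tested probe sets, the 62 higher and 19 lower became 41 higher after median scaling, 7 higher and 0 lower without an intensity trend, 12 lower with a pseudocount of 64 and 12 lower with robust eBayes. There were 192 higher and 173 lower at an adjusted p under 0.10, and 483 higher and 454 lower with the crossed replicate block. Leaving out 1 array gave between 54 and 1184 higher and between 10 and 1604 lower. In the wider list, 2 were higher after quantile scaling and 2 after loess scaling, when 1.21% and 1.35% of all probe sets were. At an adjusted p under 0.10, 2 of that list were higher and 1 lower. The crossed replicate block gave 6 higher and 4 lower there, and leaving out 1 array between 0 and 9 higher and between 0 and 13 lower.

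The members' median of −0.11 was −0.012 after quantile scaling, −0.15 after median scaling and 0.037 after loess scaling. After loess scaling the sign turned for HXK2 (0.012), PFK1 (0.011), TPI1 (0.087), TDH3 (0.14), PGK1 (0.040), GPM1 (0.051), ENO2 (0.078), CDC19 (0.12), PDC1 (0.11), ADH1 (0.017), ADH3 (0.037) and PDA1 (0.023). After quantile scaling it turned for TPI1 (0.049), TDH3 (0.053), PGK1 (0.0066), ENO2 (0.0092), CDC19 (0.075) and PDC1 (0.052), and after median scaling for PFK2 (−0.011). Without 1 array, PFK2 ranged from −0.062 to 0.11, PDC5 from −0.38 to 0.34, ADH2 from −0.46 to 0.0068, ALD5 from −0.010 to 0.32 and GCR1 from −0.73 to 0.52. Of the pairs, PDC5 relative to PDC1 was at −0.085 after quantile and −0.13 after loess scaling, ADH3 relative to ADH1 at −0.0076 after quantile scaling, and ADH2 relative to ADH1 at 0.044 with a pseudocount of 64. The cause of these changes was not tested.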
